A study of Mus musculus with 6 samples.

Results

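The data described here cover 10 genes that make, degrade or answer to cyclic AMP (cAMP) in brown adipose tissue (BAT), namely the adenylyl cyclases Adcy3 and Adcy6, the phosphodiesterases Pde3b, Pde4b and Pde4d, the protein kinase A (PKA) subunits Prkaca, Prkacb, Prkar1a and Prkar2b, and the transcription factor Creb1. They are 10 of 18193 genes named on the array, chosen by their place in the pathway, and a probe set was taken when the platform annotation gave it 1 of these symbols and no other. This gave 31 probe sets out of 45037, of which 23, with at least 1 for each of the 10 genes, averaged over 1 array median and entered the test. The other 8 were dimmer. RNA came from BAT of 3 mice that lack KRAP (KO1 to KO3), an actin-interacting protein, and from their 3 wild-type littermates (WT1 to WT3), with 1 Affymetrix mouse genome array for each adult animal fed normal chow. The number shared by a KO and a WT array marks a littermate pair. In the KO mice internal exons were replaced by a neomycin resistance cassette in the germ line, so every tissue and not only BAT lacks KRAP. Each signal below is expressed relative to its array's median, which is 1.

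In brown adipocytes noradrenaline binds receptors coupled to the stimulatory G protein, which switches on adenylyl cyclases that make cAMP from ATP. cAMP binds the regulatory subunits of PKA and frees the catalytic subunits, which phosphorylate lipases, so that fatty acids feed heat production, and the nuclear factor CREB, which binds cAMP response elements and raises genes of thermogenesis. Phosphodiesterases hydrolyse cAMP and end the signal. The arrays measured transcripts, not cAMP, kinase activity or phosphorylation.

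The cAMP response element gives a sequence by which the genes that answer to CREB can be set beside the pathway genes. In RefSeq promoter windows on GRCm38.p6, 300 bases long with 250 bases before the start and 50 after it, the full palindrome TGACGTCA was present in 588 of 32851 windows (1.79%). The half-site TGACG, read on both strands and contained in the full element, was present in 6837 of them (20.8%). Of 21 windows of 8 of the 10 genes, 2 held the full element (9.52%), both at the same place in Prkar1a, and 6 held the half-site (28.6%), in Pde4b, Prkaca, Prkacb and Prkar1a. Adcy6 and Pde3b were not matched. Among 11 windows of 10 cAMP-responsive genes of brown fat, 2 held the full element (18.2%), in Dio2 and Dusp1, and all 11 held the half-site. Sik1 of that list was not matched. The list was made of genes already known to answer to cAMP, so a high share there is no test of the element. In the window shown, the element of Prkar1a begins 49 bases before the transcription start (the transcription start of the other window lies upstream of the element). That of Dio2 begins 95 bases before its transcription start and that of Dusp1 143 bases before its own. These are matches of letters and were not tested for binding. The Prkar1a and Dio2 promoters and a stretch of the Dusp1 promoter are shown because they hold the only full elements found in either set of genes, with the element in capitals.
Prkar1a, chr11:109650699-109650998, plus strand: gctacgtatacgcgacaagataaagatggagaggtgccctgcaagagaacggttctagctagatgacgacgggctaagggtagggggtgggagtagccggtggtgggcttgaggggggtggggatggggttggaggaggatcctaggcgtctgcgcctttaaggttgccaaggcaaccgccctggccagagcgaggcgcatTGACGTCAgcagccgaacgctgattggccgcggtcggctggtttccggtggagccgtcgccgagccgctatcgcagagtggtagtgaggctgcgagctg
Dio2, chr12:90738989-90739288, minus strand: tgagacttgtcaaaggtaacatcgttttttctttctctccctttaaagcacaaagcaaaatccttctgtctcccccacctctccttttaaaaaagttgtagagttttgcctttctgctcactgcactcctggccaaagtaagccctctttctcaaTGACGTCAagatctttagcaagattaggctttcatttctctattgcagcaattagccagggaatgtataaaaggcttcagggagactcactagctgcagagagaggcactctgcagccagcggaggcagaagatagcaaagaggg
Dusp1, chr17:26508598-26508625, minus strand: gtagggcgggTGACGTCAccgcccggtc

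The arrays were of similar brightness, with medians of 16.5 to 20.4 intensity units, and the strongest signal among the 31 probe sets was 30.8% of the maximum of its array. All 10 named brown adipocyte markers lay above the array median. Markers of skeletal muscle, 8 genes all above the median, summed to 39.4, 699.6 and 21.3 in KO1, KO2 and KO3, against 91.7, 63.9 and 278 in WT1, WT2 and WT3. Liver markers summed to 47.1 in KO3 and to between 0.819 and 1.76 on the other 5 arrays. In the mean over all arrays 2 of 3 lay above the median, which rests on KO3. The 3' to 5' signal ratio of the Actb control probes was 3.80 in WT2 and 1.91 to 2.58 elsewhere. The probe set of the KRAP gene Itprid2 read 47.0, 35.1 and 41.4 in KO mice, against 55.3, 56.6 and 42.2 in WT mice, and as its position relative to the deleted exons is not known here it does not check the labels. With BAT taken whole, fewer cells of a type and less RNA per cell cannot be told apart.

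The first question was whether the genes of this pathway differed between KO and WT mice. None of the 23 tested probe sets passed limma's test with Benjamini-Hochberg adjustment, with adjusted p-values of 0.486 to 0.996, as 0 of 22356 probe sets did on the whole array (0%). At an unadjusted p under 0.05, 2 probe sets passed, 1 of Pde4b and a dim one of Prkar1a, both lower in KO mice, beside 8.55% of all tested probe sets (3.41% higher, 5.14% lower). In all 3 littermate pairs 4 of the 23 were higher in KO mice (12.4% on the whole array), 4 were lower (18.4% on the whole array) and 15 were mixed. The 4 higher ones belonged to Adcy6 and to Prkar2b, the 4 lower ones to Pde4b, Prkar1a and Creb1. A difference of 1.5-fold in the same direction in every pair, the filter in the methods of the study, was reached by 0 of the 23, beside 0.555% higher and 0.819% lower overall. Taking the brightest tested probe set of each gene, the median log2 difference, KO minus WT, was 0.05 over the 10 genes and -0.07 over all 11140 genes. By pair this median was 0.04, -0.11 and 0.22. For 9 of the 10 genes the 95% confidence interval of the brightest probe set lay within 1 log2 unit of 0, and for 3 of them (Pde4d, Prkaca and Prkar1a) within 0.58, the log2 of 1.5. Pde4b was the gene whose interval reached further.

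**Figure D1:**
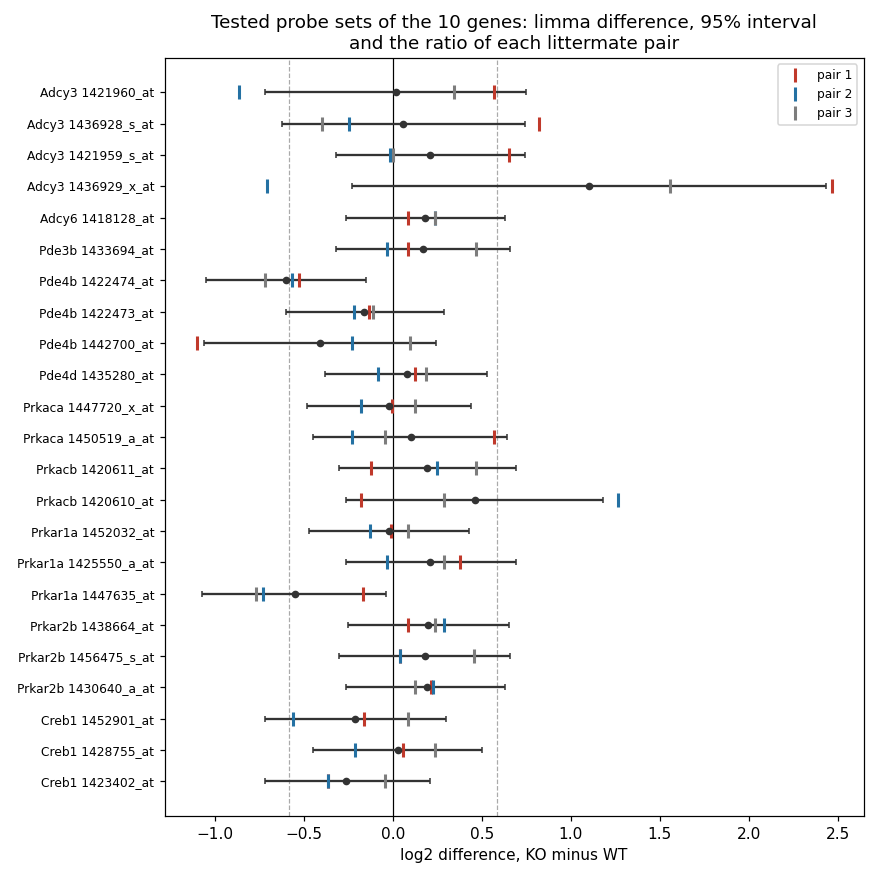
Log2 difference, KO minus WT (x axis), of the 23 tested probe sets (rows), with the limma estimate (point), its 95% confidence interval (bar) and the ratio within each littermate pair (coloured ticks, which may hide one another where equal). Dashed lines mark 1.5-fold, and no probe set had all 3 ticks beyond the same line.

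Among the enzymes that make cAMP, Adcy3, a membrane cyclase known in adipose tissue, was mixed between pairs at each of its tested probe sets. Its brightest probe set, 1421960_at, read 64.0, 19.1 and 30.1 in KO1, KO2 and KO3, against 43.2, 34.7 and 23.7 in WT1, WT2 and WT3. The groups overlapped, with the KO mouse higher in pairs 1 and 3 and lower in pair 2, and the log2 difference was 0.02 (95% confidence interval -0.72 to 0.75, adjusted p = 0.996). Leaving out pair 1 gave -0.26, leaving out pair 2 gave 0.46 and leaving out pair 3 gave -0.15. A second probe set, 1436928_s_at, gave 29.7, 12.5 and 11.8 in KO mice and 16.8, 14.8 and 15.6 in WT mice. Another, 1421959_s_at, gave 13.0, 5.03 and 5.42 in KO mice and 8.25, 5.08 and 5.42 in WT mice. In both of these KO1 was the highest array and WT1 came next. The dimmest, 1436929_x_at, a design whose probes may also match other transcripts, had the largest difference of the 23 (log2 1.1, adjusted p = 0.642), from 4.38, 1.28 and 1.43 in KO mice and 0.793, 2.09 and 0.486 in WT mice. Its ratio was below 1 in pair 2, and without pair 1 the difference was 0.42.

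Adcy6, a cyclase that calcium inhibits, was nearly level. Its probe set, 1418128_at, read 25.7, 24.1 and 25.3 in KO mice and 24.3, 20.5 and 21.4 in WT mice, or 25.0 ± 0.804 and 22.1 ± 2.00 (SD, n = 3 each). The KO mouse was higher in each pair, by 1.06, 1.18 and 1.18 times, though KO2 lay below WT1. The log2 difference of 0.18 (95% confidence interval -0.26 to 0.63) did not pass the test (adjusted p = 0.833).

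Among the enzymes that break cAMP down, the brightest probe set of Pde4b was lower in KO mice in each pair, and Pde3b and Pde4d were mixed between pairs. Pde4b encodes a cAMP-specific phosphodiesterase. Its brightest probe set, 1422474_at, read 3.78, 3.28 and 2.87 in KO1, KO2 and KO3, against 5.45, 4.85 and 4.72 in WT1, WT2 and WT3. All KO arrays lay below all WT arrays, as they did for 7.16% of tested probe sets. The means were 3.31 ± 0.456 in KO mice and 5.0 ± 0.389 in WT mice (SD, n = 3 each), with KO to WT ratios of 0.694, 0.676 and 0.608 in pairs 1, 2 and 3. Limma put it at -0.60 on the log2 scale (95% confidence interval -1.05 to -0.15, adjusted p = 0.486), and this was -0.64, -0.62 and -0.55 without pairs 1, 2 and 3. The other Pde4b probe sets were not as regular. 1422473_at read 3.04, 2.99 and 2.44 in KO mice and 3.34, 3.47 and 2.64 in WT mice, lower in each pair but by a log2 difference of only -0.16 (adjusted p = 0.866). 1442700_at read 1.61, 2.09 and 2.78 in KO mice and 3.45, 2.46 and 2.61 in WT mice, with a log2 difference of -0.41 that became -0.07 without pair 1. The Pde4b transcripts that each probe set reads were not looked up here. Of the 3 untested Pde4b probe sets, 1444731_at ran the other way, at 0.988, 0.729 and 0.809 in KO mice and 0.0663, 0.150 and 0.768 in WT mice, all below the array median (log2 1.20, adjusted p = 0.739 when tested with no filter). The remaining 2, 1447718_at and 1446577_at, averaged 0.138 and 0.0671.

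Pde3b is the phosphodiesterase through which insulin lowers cAMP in adipocytes. Its probe set, 1433694_at, read 188, 166 and 208 in KO mice and 178, 169.9 and 151 in WT mice. The groups overlapped, and a log2 change of 0.17 (95% confidence interval -0.32 to 0.66, adjusted p = 0.865) became 0.02 without pair 3. Pde4d, a cAMP-specific enzyme of the same family as Pde4b, read 51.9, 29.3 and 35.8 in KO mice and 47.7, 31.0 and 31.4 in WT mice with 1435280_at. The pair 1 animals were the highest of each genotype, and the log2 difference between genotypes was 0.08 (95% confidence interval -0.38 to 0.53, adjusted p = 0.943). A second Pde4d probe set, 1459311_at, was far below the array median on all arrays, at 0.226, 0.242 and 0.277 in KO mice and 0.0538, 0.0608 and 0.0926 in WT mice. All but KO3 lay under the floor of 0.25 used in the fit, so no fold is given.

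The PKA subunits were close to equal between KO and WT mice, with Prkar2b higher in each pair by a small margin. Prkar2b encodes RIIβ, the main regulatory subunit of PKA in adipose tissue. Its brightest probe set, 1438664_at, read 248, 242 and 257 in KO mice and 234, 198 and 217 in WT mice, or 249 ± 7.63 and 216 ± 18.1 (SD, n = 3 each). All KO arrays lay above all WT arrays, as they did for 4.59% of tested probe sets, but the log2 difference was 0.20 (95% confidence interval -0.25 to 0.65, adjusted p = 0.817). The other 2 Prkar2b probe sets were also higher in each pair. 1456475_s_at read 164, 143 and 181 in KO mice and 159, 139 and 132 in WT mice (log2 0.18, and 0.04 without pair 3). 1430640_a_at read 116, 84.0 and 80.4 in KO mice and 99.3, 72.1 and 73.9 in WT mice (log2 0.19, adjusted p = 0.830). In both of these the groups overlapped. The 3 probe sets read the same gene and are not independent measurements of the mice.

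Prkar1a encodes RIα, a widely expressed regulatory subunit, and carries the full cAMP response element shown above. Its brightest probe set, 1452032_at, read 55.9, 43.9 and 46.2 in KO mice and 56.3, 48.0 and 43.4 in WT mice (log2 -0.02, 95% confidence interval -0.47 to 0.43, adjusted p = 0.992). 1425550_a_at read 41.0, 22.2 and 23.4 in KO mice and 31.4, 22.7 and 19.2 in WT mice (log2 0.21, adjusted p = 0.818). In both the pair 1 animals were the highest of their genotype and the groups overlapped. The dim 1447635_at lay near the array median, at 1.29, 1.06 and 0.496 in KO mice and 1.45, 1.75 and 0.843 in WT mice. It was lower in KO mice in each pair, at -0.55 on the log2 scale (95% confidence interval -1.07 to -0.04, adjusted p = 0.561), which neither brighter probe set of the gene showed.

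The catalytic subunits gave no regular difference. Prkaca, which encodes the α catalytic subunit, read 141, 133 and 146 in KO mice and 141, 150.4 and 134 in WT mice with 1447720_x_at (log2 -0.02, adjusted p = 0.989). This is again a design whose probes may also match other transcripts. With 1450519_a_at Prkaca read 38.2, 26.2 and 25.1 in KO mice and 25.8, 30.8 and 25.8 in WT mice, and KO1 was the high array. The log2 difference there was 0.10 (95% confidence interval -0.45 to 0.64, adjusted p = 0.941). Prkacb, the β catalytic subunit, read 17.9, 22.8 and 25.0 in KO mice and 19.6, 19.2 and 18.1 in WT mice with 1420611_at. KO2 and KO3 lay above all WT arrays and KO1 lay below them, for a log2 KO to WT change of 0.19 (95% confidence interval -0.30 to 0.69, adjusted p = 0.844). A dim Prkacb probe set, 1420610_at, read 1.56, 1.52 and 1.05 in KO mice and 1.76, 0.632 and 0.860 in WT mice, and the log2 value of 0.46 shrank to 0.05 once pair 2 was left out. The untested 1457197_at averaged 0.304.

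Creb1, which encodes CREB, likewise gave no regular difference at its brighter probe sets. 1452901_at read 7.64, 8.25 and 10.9 in KO mice and 8.54, 12.2 and 10.2 in WT mice (log2 -0.21, 95% confidence interval -0.72 to 0.30, adjusted p = 0.833). 1428755_at read 8.70, 8.04 and 9.45 in KO mice and 8.36, 9.31 and 8.0 in WT mice (log2 0.03, adjusted p = 0.985). The groups overlapped in both. The dimmer 1423402_at read 1.51, 1.73 and 1.96 in KO mice and 1.94, 2.23 and 2.03 in WT mice, lower in each pair but with KO3 above WT1 (log2 -0.26, adjusted p = 0.758). The untested Creb1 probe sets 1452529_a_at, 1421582_a_at and 1421583_at averaged 0.507, 0.217 and 0.154.

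**Figure D2:**
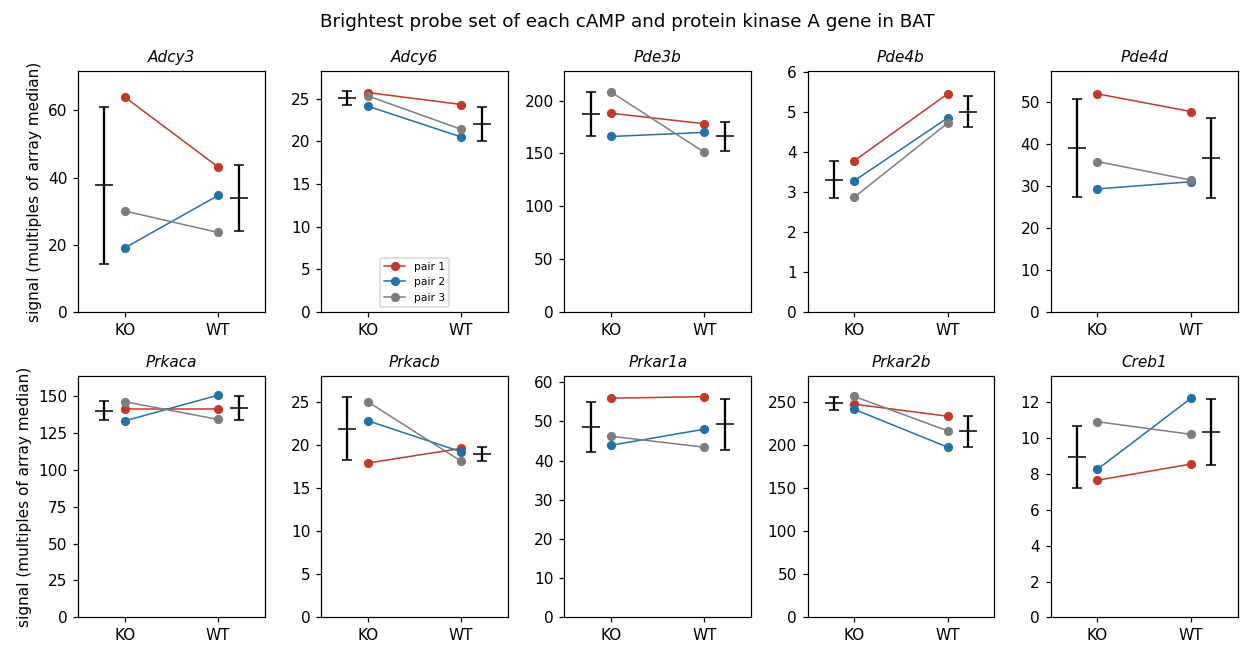
Signal of the brightest probe set of each of the 10 genes, as a multiple of the array median (y axes from 0, each with its own range), for KO (left) and WT (right). Points are arrays, lines join littermates, and the bars beside them give the mean and SD of 3 arrays. Pde4b was lower and Prkar2b higher on every KO array than on any WT array, and in Adcy3 and Pde4d the pair 1 animals were the highest of both genotypes.

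Several of these genes read highest in both animals of pair 1, a comparison made after the values had been seen. In 10 of the 23 tested probe sets (43.5%) KO1 was the highest KO array and WT1 the highest WT array, beside 21.1% of all tested probe sets. For pairs 2 and 3 this held in 0 of the 23, beside 9.59% and 9.89%. Over all 22356 tested probe sets pair 1 was also the pair most often lowest in both genotypes. That held in 4086 of them, against 2355 for pair 2 and 2391 for pair 3. Of the 23 it held in 2 for pair 1 and in 4 each for pairs 2 and 3. The 10 probe sets belonged to Adcy3 (3), Prkar1a (2), Adcy6, Pde4b, Pde4d, Prkacb and Prkar2b, and probe sets of a gene share its transcripts. Averaged over the littermates on the log2 scale, Adcy3 1421960_at stood at 52.6 in pair 1, 25.7 in pair 2 and 26.7 in pair 3. Pde4d 1435280_at stood at 49.7, 30.1 and 33.5, and Prkar1a 1425550_a_at at 35.9, 22.4 and 21.2. These ranges over 3 pairs were wider than the differences between the 2 genotypes in the same probe sets. A range over 3 averages tends to exceed a difference between 2, so the larger source of variation cannot be told from this. In limma's test over the 3 pairs, however, none of the 23 probe sets passed, and the smallest adjusted p was 0.228, for the dim Prkar1a 1447635_at, which was lowest in pair 3. Of all probe sets 46 passed (0.206%).

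The genes known to answer to cAMP in brown fat also read highest in pair 1. In 9 of 11 of them (81.8%) both pair 1 animals were the highest of their genotype, beside 18.4% of all genes (11.0% for pair 2 and 8.30% for pair 3) and 5 of the 10 pathway genes (50%), and the exceptions were Fos and Rgs2. Nr4a3, an orphan nuclear receptor gene induced by adrenergic stimulation, read 56.6, 0.124 and 0.892 in KO1, KO2 and KO3, against 28.1, 0.165 and 0.0444 in WT1, WT2 and WT3 (adjusted p = 0.00945 for the pair). It was thus far above the array median in pair 1 alone, and 3 of the other arrays were under the floor. Nr4a2, of the same receptor family, read 76.0, 5.45 and 5.63 in KO mice and 75.0, 3.47 and 2.94 in WT mice (adjusted p = 0.0157). Ppargc1a, the coactivator PGC-1α that drives mitochondrial biogenesis, read 111, 12.2 and 9.88 in KO mice and 72.7, 10.6 and 10.8 in WT mice (adjusted p = 0.0329). All 3 were several times higher in both pair 1 animals than in the other 4 mice. Dio2, the deiodinase that makes active thyroid hormone, read 101, 10.8 and 15.3 in KO mice and 44.3, 11.2 and 4.05 in WT mice at its brightest probe set (adjusted p = 0.105), and its other 2 probe sets passed (adjusted p = 0.0157 and 0.0346). Per1, a clock gene that cAMP induces, read 9.54, 2.26 and 2.77 in KO mice and 6.60, 3.18 and 2.03 in WT mice (adjusted p = 0.162). The calls of Nr4a2, Nr4a3 and Ppargc1a were lost with no scaling (adjusted p = 0.0925, 0.0925 and 0.171), with quantile normalization (0.129, 0.129 and 0.179) and with no filter on dim probe sets (0.358 for each). With no floor the call of Nr4a3 was also lost (0.0941). With quantile normalization and with no filter no probe set on the array passed, so the Dio2 calls were lost there as well.

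Other values moved with pair 1. The 3' to 5' ratio of the Pcx control probes was 10.7 in KO1 and 8.99 in WT1, against 22.2 and 25.3 in KO2 and KO3 and 52.9 and 22.1 in WT2 and WT3. The summed brown adipocyte markers, which include Ppargc1a and Dio2, were 4002, 3101 and 3608 in KO mice and 3967, 3730.2 and 3130.2 in WT mice. Their part in the pattern was not tested, and nothing in the sources says whether littermates also shared a day, an hour or an order of sampling.

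**Figure D3:**
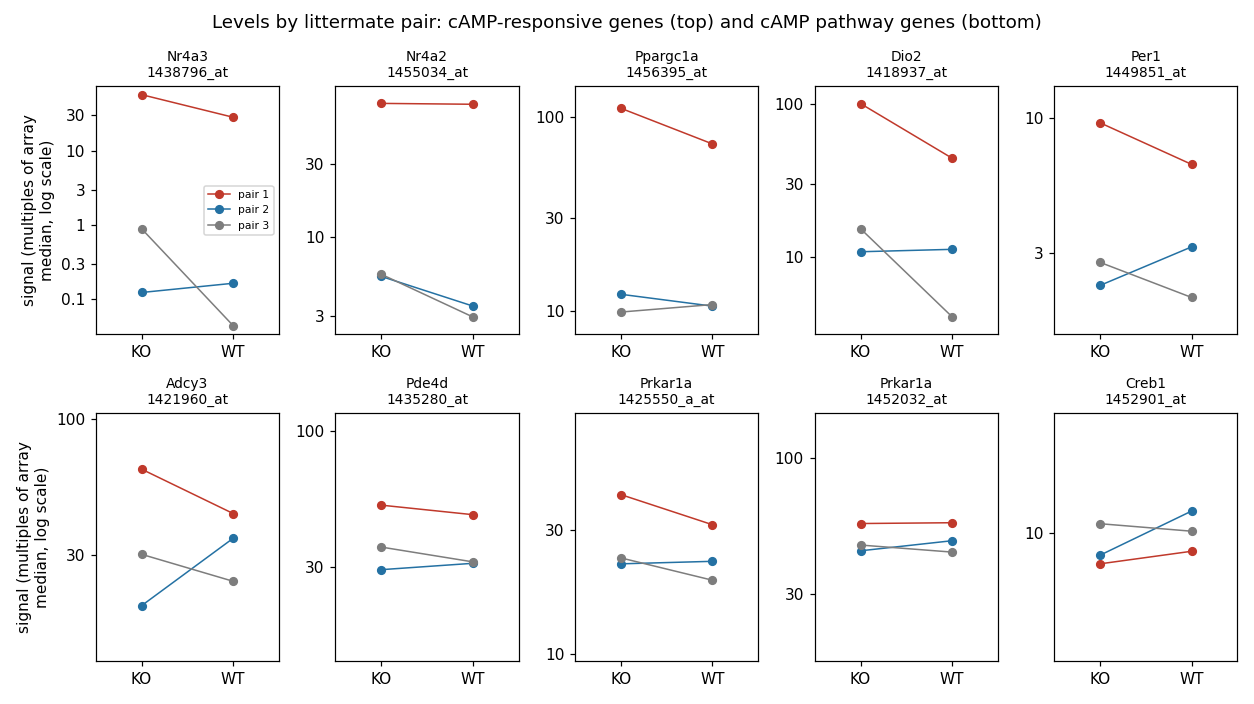
Signal by littermate pair, as a multiple of the array median on log axes (each panel has its own range, and most of the top row spans more), for 5 cAMP-responsive genes (top) and 5 probe sets of the pathway genes (bottom), with KO left and WT right. Pair 1 lies above pairs 2 and 3 in both genotypes in all panels but that of Creb1. The panels were picked after the values had been seen, so their share does not stand for the genes as a whole. Among all tested probe sets of the pathway genes the pattern held in 10 of 23. It held in 9 of 11 cAMP-responsive genes, and the exceptions, Fos and Rgs2, are not shown.

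The rest of the pathway was taken from lists of 77 other genes, of which 68 had a singly annotated probe set and 54 were tested. Of the 54, 10 were higher and 11 lower in KO mice in all 3 pairs, beside 10.9% and 19.7% of all genes, and 33 were mixed. None passed the adjusted test. By the brightest probe set of each gene none reached 1.5-fold in every pair (0.601% higher and 0.862% lower over all genes), while Dio2 1426081_a_at and Rgs2 1419247_at and 1447830_s_at, dimmer probe sets of their genes, were above 1.5-fold higher in KO mice in each pair. At an unadjusted p under 0.05, 5 were higher and 4 lower (3.22% and 4.98% of all genes, 8.20% together), and their median log2 difference was -0.04. The 5 higher were Adcy9 and 4 cAMP-responsive genes, Nr4a1, Rgs2, Dio2 and Nr4a3, and the 4 lower were Adcy10, Pkia, Tshr and Ptger3. At the brightest probe set Nr4a1 had a log2 difference of 1.51 (adjusted p = 0.431) and Rgs2 had 0.77 (0.439), each higher in all pairs. Dio2 had 1.02 (0.535) and was mixed between pairs, and Nr4a3 had 0.95 (0.538) with arrays under the floor. Dio2 1426081_a_at and Rgs2 1419247_at gave 1.22 and 1.14 (0.396 for each), and Dio2 1418938_at gave 0.37. The study reports Dio2 as up-regulated in KO BAT. Dusp1 was lower in each pair (log2 -0.42).

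Beside Adcy3 and Adcy6, 6 of 8 other cyclases were tested. Adcy9, a cyclase that is nearly insensitive to forskolin, had the largest difference in the upward direction among these 6. Its brightest probe set read 22.0, 21.3 and 27.4 in KO mice and 19.4, 11.5 and 15.9 in WT mice (log2 0.62, 95% confidence interval 0.09 to 1.15, adjusted p = 0.524), so that all KO arrays lay above all WT arrays, as for 4.43% of all genes. All 4 tested Adcy9 probe sets were higher in each pair, with log2 differences of 0.47, 0.62, 0.66 and 0.81. Adcy4 was lower in each pair (log2 -0.42, adjusted p = 0.638). Adcy10, the soluble bicarbonate-sensitive cyclase, was near the array median, at 0.778, 0.890 and 0.753 in KO mice and 1.60, 2.56 and 0.734 in WT mice (log2 -0.84, adjusted p = 0.547), with -0.50 without pair 2 and -1.28 without pair 3.

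Of 5 tested G protein α subunits, 0 were higher and 1 was lower in all pairs at the brightest probe set. Gnas, which encodes the stimulatory α subunit, read 469.9, 397 and 454 in KO mice and 448, 438 and 357 in WT mice (log2 0.09, adjusted p = 0.936, and -0.04 without pair 3). A dim Gnas probe set, 1453413_at, read 2.40, 2.73 and 3.42 in KO mice and 1.84, 1.35 and 1.13 in WT mice (log2 1.0, adjusted p = 0.439), and the transcript of this complex locus that it reads was not looked up here. Gnai1, an inhibitory subunit, had a log2 difference of -0.32 (adjusted p = 0.734), and -0.11 without pair 2. For Gnao1, a subunit best known from nervous tissue, the brightest probe set gave -0.21 and the dimmer 1448031_at, lower in each pair, gave -0.61 (adjusted p = 0.533).

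Of the other phosphodiesterases, 8 of 13 were tested, 3 were higher and 2 lower in all pairs (10.9% and 19.7% of all genes). Pde4a, the nearest relative of Pde4b in that list by family, read 4.50, 2.90 and 3.85 in KO mice and 2.63, 2.42 and 3.29 in WT mice (log2 0.42, adjusted p = 0.639, and 0.25 without pair 1), the opposite direction to Pde4b. Pde1a and Pde7b had log2 differences of 0.34 (0.22 without pair 1) and 0.26. Pde7a, 1 of the 2 lower in all pairs, had a log2 difference of -0.27, and -0.08 without pair 2. Its other tested probe sets were mixed.

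Among the remaining PKA genes Pkia stood out. It encodes a peptide that binds and blocks the free catalytic subunit. It read 2.15, 4.71 and 1.70 in KO mice and 2.93, 13.7 and 7.71 in WT mice (log2 -1.39, 95% confidence interval -2.19 to -0.58, adjusted p = 0.407), lower in each pair though KO2 lay above WT1. A second Pkia probe set gave 0.724, 2.09 and 0.627 in KO mice and 0.793, 3.72 and 3.27 in WT mice (log2 -1.12, and -0.48 without pair 3). Pkia is also expressed in muscle and nervous tissue. Schwann cell and nerve markers, 4 named genes of which 2 lay above the median, summed to 36.5, 26.4 and 31.1 in KO mice and 61.4, 89.0 and 54.0 in WT mice, lower in each pair, and the muscle sums given above were highest in KO2 and WT3. Their part in the difference was not tested.

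Of 10 tested A-kinase anchoring proteins, which hold PKA at its sites, 3 were lower in all pairs and 0 higher (19.7% and 10.9% of all genes), with a median log2 difference of -0.04. Crtc1, a CREB coactivator, read 2.74, 2.56 and 1.4 in KO mice and 1.81, 0.475 and 1.36 in WT mice (log2 1.02, adjusted p = 0.601), and 0.32 without pair 2. The cAMP-responsive genes had a median log2 difference of 0.54, with 0.37, 0.00 and 0.64 in pairs 1, 2 and 3. That median was 0.34 without pair 3 or with a floor of 1, and 0.30 when the tested probe sets of each gene were averaged. Of these 11 genes, 3 were higher and 1 was lower in all pairs (10.9% and 19.7% of all genes). Upstream, 3 of 11 listed receptors were tested and 6 are not analysed here. Ptger3, the prostaglandin E2 receptor that couples to the inhibitory G protein, read 29.0, 84.0 and 85.9 in KO mice and 101, 144 and 100.5 in WT mice (log2 -0.94, 95% confidence interval -1.70 to -0.18, adjusted p = 0.509). All KO arrays lay below all WT arrays, as for 7.87% of all genes, and the log2 difference was -0.50 without pair 1. Tshr, the thyrotropin receptor, which couples to the stimulatory G protein, read 2.30, 4.36 and 3.56 in KO mice and 4.32, 8.0 and 4.40 in WT mice (log2 -0.70, adjusted p = 0.484). A second Tshr probe set, 1442300_at, was mixed between pairs (log2 -0.44, adjusted p = 0.689, and -0.13 without pair 2).

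**Figure D4:**
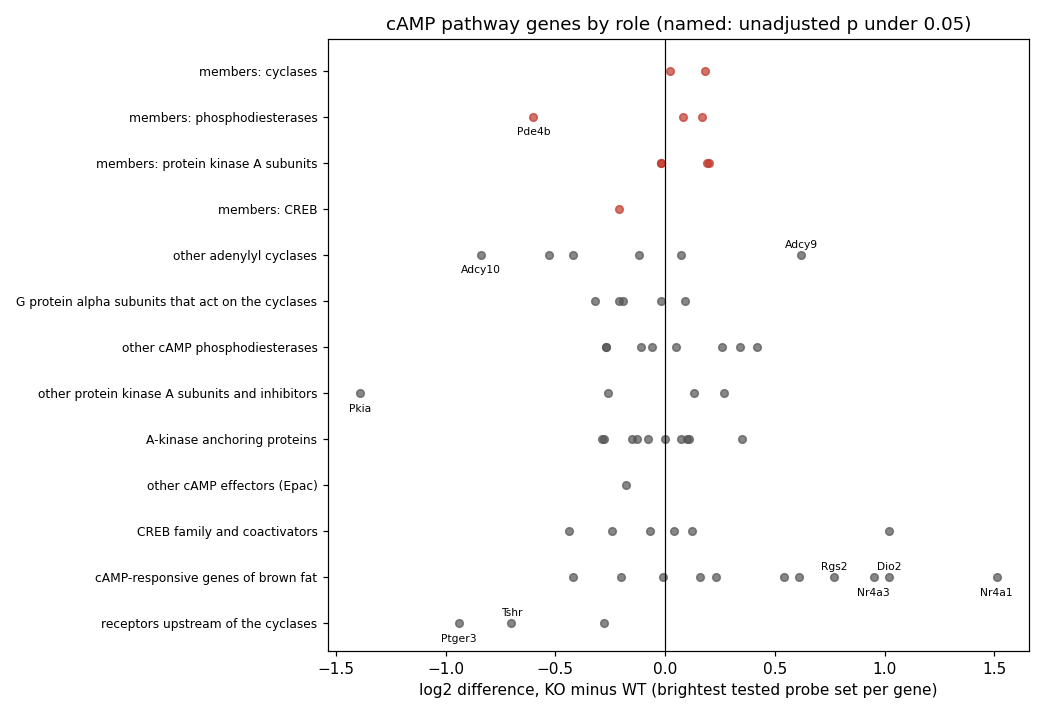
Log2 difference, KO minus WT (x axis), of the brightest tested probe set of each gene, grouped by role (rows), with the 10 pathway genes in red and the other listed genes in grey. Names mark genes with an unadjusted p under 0.05, and no gene passed after adjustment.

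Since Pde4b had the smallest unadjusted p of the 10 genes, the genes most like its brightest probe set over the 6 arrays were listed as a description. These were Ubqln2 (Pearson r = 0.989), Cyb561a3 (0.985), Osbp (0.983), Ggt6 (0.980) and Sos1 (0.977), and 109 of 11139 genes had an r above 0.9. All 5 were lower in KO mice, with log2 differences of -0.27, -0.44, -0.20, -1.32 and -0.38, and the 6 points share the split between genotypes.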

How the data were processed

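The authors hybridised BAT RNA of each mouse to 1 array, without pooling, and deposited 1 linear signal intensity per probe set, made with GCOS per the submitters' processing notes. Neither its version nor its algorithm is stated in the sources used. Control probe sets (64) were left out. Intensity was divided by the array median, as the study's methods do, floored at 0.25 and put on the log2 scale, and the 22356 probe sets with a mean above 1 were tested with limma 3.58.1 in R 4.3.3 (lmFit, eBayes; genotype and littermate pair as terms; Benjamini-Hochberg over all tested probe sets, threshold 0.05). Folds understate changes near the floor. The series' design text names littermates by a shared number, which was taken as a pair. After subtracting each genotype's mean, littermate arrays correlated at 0.446 (pair 1), 0.0847 (pair 2) and 0.160 (pair 3), and KO and WT arrays of different pairs at -0.359 to 0.281. The pairing thus rests on the design text. With 3 animals per genotype, the number of arrays limits the precision. The platform annotation gave 34945 probe sets 1 symbol, 932 several and 9160 none, and 34741 matched the RefSeq gene table with 0 renamed.

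Every probe set of the 10 genes was named, and of the other lists at most 4 genes each, by unadjusted p. Further probe sets of these genes, including Gnao1 1448031_at, Nr4a2, Ppargc1a and Per1 were named after their values had been seen. The genes and lists were chosen with earlier results of these data known. Alternatives were no block, no scaling, quantile normalization, other floors, a pseudocount of 1, other filters, an intensity trend with robust prior, and each pair left out. The test over pairs was added after the data had been seen. The fit was run on data simulated from its own fitted spread, without a pair effect. That run does not show how the fit performs on these arrays.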

Additional observations from a re-analysis of the deposited data

How the results depend on the processing

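No probe set of the 10 genes passed the genotype test under any of the 12 alternatives, with a smallest adjusted p between 0.219 (filter above 2) and 0.788 (without pair 2). Of 272 log2 differences, 260 kept their direction and 12 reversed, in 7 of 23 probe sets. With 1 pair left out, the range was -0.26 to 0.46 for Adcy3 1421960_at (-0.15 without pair 3), -0.32 to 0.29 for Adcy3 1436928_s_at, -0.01 to 0.33 for Adcy3 1421959_s_at, -0.09 to 0.06 for Prkaca 1447720_x_at, -0.14 to 0.26 for Prkaca 1450519_a_at, -0.07 to 0.04 for Prkar1a 1452032_at and -0.08 to 0.15 for Creb1 1428755_at. With no scaling Prkaca 1447720_x_at and Prkar1a 1452032_at both gave 0.04, and with quantile normalization 0.00219 and 0.05. Quantile normalization put 7 probe sets of the 10 genes higher in all pairs instead of 4, and a 1.5-fold minimum left 0 higher and 0 lower. Dropping the replicate block for littermate pairing, 0 probe sets passed over the whole array, and the smallest adjusted p of the 10 genes was 0.773. That count was 311 under an intensity trend with robust prior, 23 with a floor of 1, 123 with a pseudocount of 1, 40 under the filter above 2, and 0 to 255 with 1 pair left out (255 without pair 1). For the littermate pair, 46 probe sets passed, against 1 with no scaling, 0 with quantile normalization, 274 with a floor of 1, 23 with no floor, 495 with a pseudocount, 0 with no filter, 434 with a filter above 2 and 813 with the intensity trend. With that trend Adcy3 1421959_s_at passed the pair test (adjusted p = 0.0180). The cause was not tested. Probe sets near the floor are limited by signal over background, and groups of 3 were not examined for outlying arrays.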
